A study of Mus musculus with 8 samples.

Results

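The genes described here are 10 receptors and scaffolds of selective autophagy: *Sqstm1*, *Nbr1*, *Optn*, *Tax1bp1*, *Wdfy3*, *Fam134b*, *Ccpg1*, *Tex264*, *Rtn3* and *Sec62*. They were chosen by name, as the rows of the deposited table whose gene symbol equals one of these 10. Each of the 10 was matched by exactly 1 of the 22206 probe sets, and none of the 10 was saturated on any array. *Fam134b* is the symbol in the table for the gene that RefSeq now calls *Retreg1*. The samples were 8 pieces of gastrocnemius muscle (GAS) from male C57/Bl6j mice. Of these, 4 were of AAV sh-RNA MYTHO (MYTHO-KD) and 4 of AAV sh-RNA scrmb (scrmb). In MYTHO-KD, an adeno-associated virus of serotype 1 was injected into the muscle to deliver a short hairpin RNA, driven by the U6 promoter, against the transcript of D230025D16Rik, the gene of the MYTHO protein. In scrmb, the leg on the other side of the same animal received the same kind of virus with a scrambled hairpin, so both groups carried a viral vector and no group was free of it. The virus was given at about 10 weeks of age, the muscles were taken 3 weeks later, and the labels give the age as 14 weeks. The 4 animals are called A to D, and each gave 1 array to each group. The question was whether lowering *Mytho* went with a different level of receptor mRNA.

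Selective autophagy delivers chosen cargo to the lysosome. A receptor protein binds the cargo, often through a ubiquitin tag, and binds lipid-anchored ATG8 proteins (the LC3 and GABARAP families) on the forming autophagosome through a short LC3-interacting region. In ER-phagy the receptor is itself a protein of the endoplasmic reticulum (ER), and it marks pieces of that membrane for removal. Receptors are degraded together with their cargo, so an mRNA level and a protein level can move apart. Skeletal muscle relies on this route to clear protein aggregates and to renew the sarcoplasmic reticulum, its specialised ER.

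The values are log2 signals of gene-level probe sets, and a difference of 1 is a 2-fold change. Probe sets differ in brightness for reasons unrelated to RNA amount, so levels are compared between groups and never between genes. Differences are MYTHO-KD minus scrmb, and values per array are given in the order of animals A to D. The knockdown was present in the arrays labelled MYTHO: D230025D16Rik averaged 11.12 ± 0.26 in scrmb and 8.31 ± 0.33 in MYTHO-KD (SD, n = 4 each), and no array overlapped between the groups. The log2 difference was -2.81 with an SE of 0.21 (limma, adjusted p = 0.00044), and it was lower in 4 of 4 animals. Median log2 signals were between 6.39 and 6.47 on the 8 arrays. In the markers of slow fibres, 2 arrays stood apart from their groups: the mean log2 signal over 8 such genes was 12.80 in the scrmb array of A against 10.80 to 11.11 in the other scrmb arrays, and 10.87 in the MYTHO-KD array of D against 13.51 to 13.87 in the other MYTHO-KD arrays. Without both, a choice made after the values were seen, 0 receptors passed an unadjusted or an adjusted p of 0.05 in limma, and the log2 differences of *Fam134b*, *Tax1bp1* and *Tex264* were -0.29, -0.29 and 0.38.

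Of the 10 receptors, 0 passed an adjusted p of 0.05 in limma, where 0.027% of all probe sets did. At an unadjusted p of 0.05, 1 receptor was higher in MYTHO-KD (*Tex264*) and 0 were lower, against 4.81% of all probe sets higher and 7.58% lower. This split of all probe sets depended on the scaling. It was 1068 higher and 1683 lower as deposited, and 1353 higher and 1408 lower with each array centred on its median. *Tex264* was the 1 receptor called in both. With a further quantile normalization the split was 1287 higher and 1531 lower. There the 1 receptor called was *Fam134b*, lower (limma, unadjusted p = 0.039), and not *Tex264* (limma, unadjusted p = 0.052). The study required a 2-fold difference or more together with an unadjusted p below 0.05, which 0 of the 10 met, against 1.51% of all probe sets. Its methods also name false discovery rate calculations after Benjamini and Hochberg. The groups did not overlap for 2 receptors that were lower in MYTHO-KD (*Fam134b* and *Tax1bp1*) and for 0 that were higher, where 3.87% of all probe sets were lower and 2.59% higher without overlap. With 10 genes, these counts are too small to be set apart from the shares of the whole table. In all, 4 receptors had a positive and 6 a negative log2 difference. The median over the 10 was -0.03, beside -0.005 over all probe sets, and the median size regardless of sign was 0.23 beside 0.20. The 95% intervals of all 10 lay within a 2-fold change in either direction, from a lowest bound of -0.71 for *Fam134b* to a highest bound of 0.87 for *Optn*, with *Tex264* close to it. A larger difference than that of any receptor, in either direction, was measured for 3618 probe sets, or 16.3%. The median residual SD was 0.20 for the receptors and 0.32 for all probe sets, so a small difference was resolved better for the receptors than for a typical probe set.

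**Figure D1:**
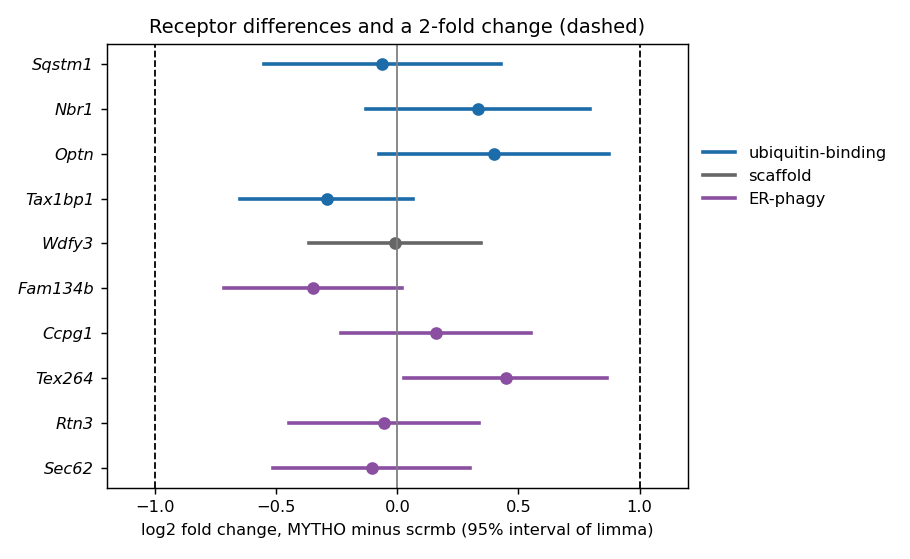
Log2 difference, MYTHO-KD minus scrmb, of each of the 10 receptors (points) with its 95% interval from limma (lines), coloured by role. The dashed lines mark a 2-fold change, which no interval reaches, and the interval of 1 receptor, *Tex264*, excludes 0.

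The receptor named *Fam134b* lies on chromosome 15 from 25843298 to 25973696 in GRCm38.p6, the assembly also called mm10. It codes for a reticulon-like ER-phagy receptor that bends ER membrane and binds ATG8 proteins. RefSeq gives 4 start sites for this gene, and its single probe set lists several RefSeq transcripts, so the array signal was read for the gene and not for a start. The upstream sequences are shown because *Fam134b* and *Sec62* were the only receptors of the 9 with a RefSeq promoter whose windows held TCACGTG, the core of the CLEAR element that TFEB, TFE3 and MITF bind. Each is the 250 bases before a start site on the plus strand of GRCm38.p6, with the CLEAR core in capitals. They come in the order of the *Fam134b* start farthest upstream (chr15:25843048-25843297), the *Fam134b* start farthest downstream (chr15:25942429-25942678) and the single *Sec62* start (chr3:30792626-30792875).
Fam134b upstream start: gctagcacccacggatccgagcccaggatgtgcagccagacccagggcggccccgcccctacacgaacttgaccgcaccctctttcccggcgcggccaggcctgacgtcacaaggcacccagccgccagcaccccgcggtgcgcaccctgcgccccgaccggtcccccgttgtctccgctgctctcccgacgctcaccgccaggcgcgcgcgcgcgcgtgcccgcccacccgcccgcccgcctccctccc
Fam134b downstream start: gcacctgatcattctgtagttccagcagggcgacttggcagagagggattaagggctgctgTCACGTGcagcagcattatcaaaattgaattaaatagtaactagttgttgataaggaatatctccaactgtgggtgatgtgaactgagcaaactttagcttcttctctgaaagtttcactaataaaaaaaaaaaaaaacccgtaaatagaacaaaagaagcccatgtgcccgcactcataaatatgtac
Sec62 start: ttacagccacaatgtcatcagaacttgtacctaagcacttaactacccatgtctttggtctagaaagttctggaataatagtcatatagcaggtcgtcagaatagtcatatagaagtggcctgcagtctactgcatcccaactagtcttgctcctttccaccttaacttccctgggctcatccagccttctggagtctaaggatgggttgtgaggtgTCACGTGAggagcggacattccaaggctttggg
The window of the farthest upstream start, with 50 bases after the start added, has a GC content of 74.7% and no CLEAR core. The window of the farthest downstream start has 1 match, and that of *Sec62* has 2 matches that overlap, 1 on each strand.

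Over 300-base windows on both strands, TCACGTG was in 2 of the 15 receptor promoters and in 3.77% of all 32851 RefSeq promoters. The FoxO site TGTTTAC was in 0 of the 15 and in 3.65% of all promoters. The ATF4 site TGATGNAA was in 0 of the 15 and in 3.97% of all. The antioxidant response element TGACNNNGC, bound by NRF2, was in 2 of the 15, those of *Rtn3* and *Tax1bp1*, and in 12.4% of all. No motif contains another, although neighbouring matches can share bases. A match of letters is a description of the sequence and says nothing of binding.

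Among the ER-phagy receptors, *Fam134b* had the tightest controls. In animals A to D, its log2 signal was 15.34, 15.41, 15.31 and 15.30 in scrmb. In the MYTHO-KD arrays of the same animals it was 15.19, 14.85, 15.12 and 14.81. All MYTHO-KD arrays were below all scrmb arrays, and arrays of animals B and D were farther below their controls than those of A and C. The means were 15.34 ± 0.05 and 14.99 ± 0.19 (SD, n = 4 each). The log2 difference was -0.35 with an SE of 0.17 and a 95% interval from -0.71 to 0.02, or 0.786 of the scrmb signal (limma, adjusted p = 0.431). The difference was negative in 4 of 4 animals, yet it did not pass the test. limma estimates each error partly from all probe sets, and the residual SD of *Fam134b* itself, 0.139, was smaller than that of all but 3.52% of probe sets. Over 20 alternative analyses the unadjusted p of *Fam134b* was under 0.05 in 4, while its adjusted p in limma ranged from 0.276 to 0.654.

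*Tex264*, on chromosome 9 from 106658746 to 106685952, codes for a single-pass ER membrane protein that is a receptor of ER-phagy. Its log2 signal was 10.17, 10.22, 10.44 and 10.83 in scrmb and 10.84, 10.75, 11.05 and 10.81 in MYTHO-KD. The scrmb array of animal D lay within the MYTHO-KD range, so the groups overlapped there, and the other scrmb arrays lay below every MYTHO-KD array. The means were 10.42 ± 0.30 and 10.86 ± 0.13 (SD, n = 4 each). The log2 difference was 0.45 with an SE of 0.19 and a 95% interval from 0.03 to 0.87, or 1.36 times the scrmb signal (limma, adjusted p = 0.372). Within animals the difference was 0.67, 0.53 and 0.61 in A, B and C, and -0.02 in D. Animal D also differed from the others in the slow fibre markers, whose mean was 1.06, 2.40 and 2.74 higher in the MYTHO-KD leg of A, B and C and 0.07 higher in that of D. The arrays that set D apart were not the same. For *Tex264* it was the scrmb array of D, the highest of scrmb at 10.83, while the slow fibre mean there was 10.80. For the slow fibre markers it was the MYTHO-KD array of D, at 10.87 against 13.51 to 13.87, while its *Tex264* signal was 10.81. The scrmb array of A, at 12.80 in the slow fibre mean, had the lowest *Tex264* signal of all, 10.17. The part of these markers in the *Tex264* value was not tested. Without animal D, a choice made after the values were seen, the log2 difference of *Tex264* was 0.60 (limma, adjusted p = 0.248), and without the 2 arrays that stood apart it was 0.38 (adjusted p = 0.587).

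The other ER-phagy receptors had log2 differences from -0.10 to 0.16. *Ccpg1* (chromosome 9, 72985402 to 73016340), an ER membrane receptor whose transcript is induced by ER stress, had log2 signals of 10.04, 9.61, 10.03 and 9.63 in scrmb and 9.96, 9.83, 10.06 and 10.10 in MYTHO-KD, and the groups overlapped. Its log2 difference was 0.16, with a 95% interval from -0.23 to 0.55 (limma, adjusted p = 0.776). The difference of *Ccpg1* ran from 0.0875 to 0.23 when 1 array was left out, and it was 0.057 without animal D. *Rtn3* (chromosome 19, 7425895 to 7483291), a reticulon whose long isoform fragments ER tubules, had signals from 12.12 to 12.42 in scrmb and from 11.99 to 12.43 in MYTHO-KD. Each pair of legs differed by at most 0.32, with 1 animal higher and 3 lower in MYTHO-KD, and the 95% interval of *Rtn3* ran from -0.45 to 0.34 (limma, adjusted p = 0.935). *Sec62* (chromosome 3, 30792876 to 30821263), a part of the protein import machinery that also serves as a receptor when the ER recovers from stress, had signals of 13.27, 13.24, 13.28 and 13.54 in scrmb and 13.14, 12.90, 13.36 and 13.51 in MYTHO-KD. Both arrays of animal D were the highest of their groups for *Sec62*, and the log2 difference was -0.10 with a 95% interval from -0.51 to 0.30 (limma, adjusted p = 0.869).

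**Figure D2:**
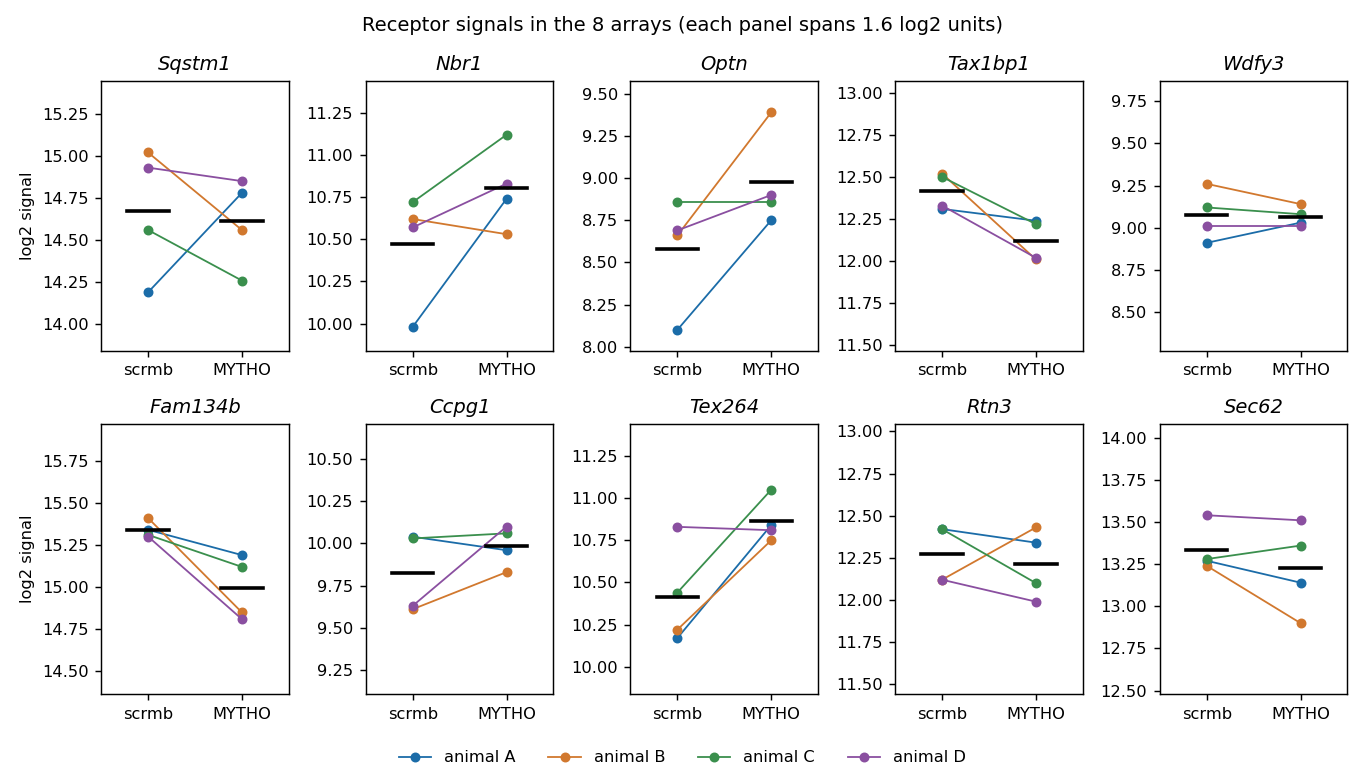
Log2 signal of each receptor on the 8 arrays, with the scrmb and MYTHO-KD (labelled MYTHO) legs of 1 animal joined by a line and the group means as black bars. Every panel spans 1.6 log2 units, so slopes can be compared between panels while levels cannot. *Fam134b* and *Tax1bp1* have all MYTHO-KD points below all scrmb points.

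Of the 4 ubiquitin-binding receptors, 2 had positive and 2 negative log2 differences. *Sqstm1*, on chromosome 11 from 50200152 to 50210820, codes for the p62 protein, which gathers ubiquitinated proteins into condensates. Its log2 signal was 14.19, 15.02, 14.56 and 14.93 in scrmb and 14.78, 14.56, 14.26 and 14.85 in MYTHO-KD. The lowest and the highest arrays were both scrmb, and the MYTHO-KD arrays lay between them. The log2 difference of *Sqstm1* was -0.06, with an SE of 0.22 and a 95% interval from -0.55 to 0.43 (limma, adjusted p = 0.943). Animal A was 0.59 higher in MYTHO-KD, while B, C and D differed by -0.46, -0.30 and -0.08. *Sqstm1* thus had no direction shared by the animals, and it turned to a positive difference of up to 0.055 when 1 array was left out (scrmb of B, scrmb of D or MYTHO-KD of C). Without the 2 arrays that stood apart in the slow fibre markers, the log2 difference of *Sqstm1* was -0.30 (limma, adjusted p = 0.682).

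*Tax1bp1*, on chromosome 6 from 52713692 to 52766780, codes for a receptor that joins p62 condensates to the autophagy initiation machinery. Its log2 signal was 12.31, 12.52, 12.50 and 12.33 in scrmb and 12.24, 12.01, 12.22 and 12.02 in MYTHO-KD. The groups did not overlap, by the margin between 12.31 and 12.24, both of animal A. The means were 12.42 ± 0.11 and 12.12 ± 0.12 (SD, n = 4 each). The log2 difference was -0.29, with an SE of 0.16 and a 95% interval from -0.65 to 0.07, or 0.816 of the scrmb signal (limma, adjusted p = 0.503). It was negative in 4 of 4 animals and, like *Fam134b*, had a small residual SD of 0.118, lower than that of all but 1.77% of probe sets. The unadjusted p of *Tax1bp1* was under 0.05 in 0 of the 20 alternative analyses, and its adjusted p in limma ranged from 0.342 to 0.698.

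*Optn* (chromosome 2, 5020521 to 5064399), which codes for optineurin, a receptor of ubiquitinated mitochondria and bacteria, and *Nbr1* (chromosome 11, 101552107 to 101581951), which codes for a partner of p62 with a similar domain layout, had higher means in MYTHO-KD without passing the test. The log2 signal of *Optn* was 8.10, 8.66, 8.86 and 8.69 in scrmb and 8.75, 9.39, 8.86 and 8.90 in MYTHO-KD. It was higher in 3 animals and the same in animal C. The log2 difference was 0.40 with a 95% interval from -0.08 to 0.87 (limma, adjusted p = 0.494). When 1 array was left out, the log2 difference of *Optn* ran from 0.24 without the scrmb array of A to 0.49 without that of C. The log2 signal of *Nbr1* was 9.98, 10.62, 10.72 and 10.57 in scrmb and 10.74, 10.53, 11.12 and 10.83 in MYTHO-KD. The scrmb array of animal A was the lowest of the 8 for both genes as well as for *Sqstm1*, *Wdfy3* and *Tex264*. The log2 difference of *Nbr1* was 0.33 with a 95% interval from -0.13 to 0.80 (limma, adjusted p = 0.566). Without the scrmb array of A and the MYTHO-KD array of D, a choice made after the values were seen, it was 0.16 (limma, adjusted p = 0.845).

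*Wdfy3* (chromosome 5, 101832953 to 102072215) codes for ALFY, a large scaffold that brings p62 bodies and the autophagy machinery together. Its log2 signal was 8.91, 9.26, 9.12 and 9.01 in scrmb and 9.03, 9.14, 9.08 and 9.01 in MYTHO-KD. All MYTHO-KD arrays of *Wdfy3* lay within the scrmb range, and the log2 difference was -0.01 with a 95% interval from -0.37 to 0.35 (limma, adjusted p = 0.990).

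**Figure D3:**
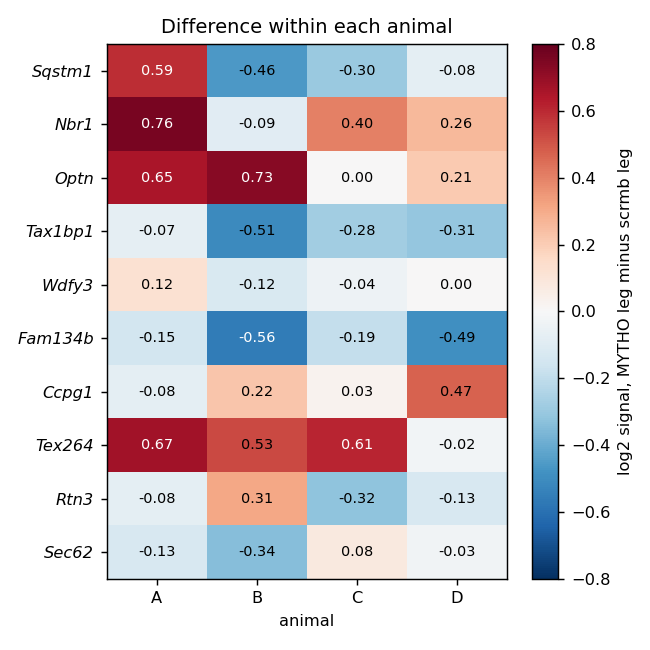
Log2 difference between the MYTHO-KD leg and the scrmb leg of each animal (columns A to D) for each receptor (rows), with red for higher and blue for lower in MYTHO-KD. *Fam134b* and *Tax1bp1* are negative in 4 of 4 animals, and *Tex264* is at 0.53 to 0.67 in A, B and C and at -0.02 in D.

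The genes around the receptors were read from 7 lists of 97 genes, measured by 96 probe sets. Of these probe sets, 7 (7.29%) were higher and 4 (4.17%) lower in MYTHO-KD at an unadjusted p of 0.05, beside the 4.81% and 7.58% of all probe sets, and 0 passed an adjusted p of 0.05 in limma (lowest adjusted p = 0.164). The median log2 difference over the 96 was 0.065. With animal as a block, 8 were higher and 3 lower at an unadjusted p of 0.05 and 0 passed an adjusted p of 0.05 in limma. In that fit *Chac1* and *Atg7*, the latter named after its value was seen, came to be called at the unadjusted threshold, and *Atg12* and *Ufm1* were no longer called.

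The ATG8 proteins are what every receptor docks to, and in this list of 5 genes *Map1lc3a* stood out while the other 4 did not pass an unadjusted p of 0.05. The log2 signal of *Map1lc3a*, the gene of LC3A, was 10.42, 10.16, 9.74 and 11.17 in scrmb and 11.36, 12.10, 11.18 and 11.40 in MYTHO-KD. The groups did not overlap, but only just, since the scrmb array of D at 11.17 nearly reached the MYTHO-KD array of C at 11.18. The log2 difference was 1.14 with an SE of 0.30 (limma, adjusted p = 0.164), higher in 4 of 4 animals. When 1 array was left out, the log2 difference of *Map1lc3a* ran from 0.93 without the scrmb array of C to 1.40 without that of D. It passed only without the scrmb array of D, with an adjusted p of 0.0443 in limma, against 0.212 to 0.379 without each other array. Without both arrays of D the adjusted p of *Map1lc3a* in limma was 0.086.

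Among the other cargo receptors, 2 of 13 were higher at an unadjusted p of 0.05 and 0 lower. *Phb2*, the gene of prohibitin 2, an inner mitochondrial membrane receptor of mitophagy, had a log2 difference of 0.62 with no overlap (limma, adjusted p = 0.243). *Calcoco1*, the gene of a receptor for tubular ER and Golgi, had a log2 difference of 0.57 (limma, adjusted p = 0.335), and animal D was the exception among 4 animals, as for *Tex264*. Among 20 genes that shape the ER or attach UFM1 to it during ER-phagy, 0 were higher and 2 lower. *Arl6ip1*, which codes for a small ER-shaping partner of FAM134B, had log2 signals of 9.03, 8.81, 9.12 and 8.47 in scrmb and 8.56, 8.05, 8.79 and 7.93 in MYTHO-KD. It was lower in 4 of 4 animals with a log2 difference of -0.53 (limma, adjusted p = 0.390). *Ufm1*, the gene of the ubiquitin-like modifier UFM1, had a log2 difference of -0.38 with no overlap (limma, adjusted p = 0.397), and its unadjusted call was lost with animal as a block.

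Of 25 genes of the core autophagy machinery, 4 were higher and 1 lower at an unadjusted p of 0.05. The higher ones were *Becn1*, a subunit of the lipid kinase that starts the membrane (log2 difference 0.47), *Wipi1*, which binds its lipid product (0.47), *Atg12*, a ubiquitin-like conjugation factor (0.37), and *Atg4c* (0.55). The lower one was *Atg4a* (-0.62), another member of the ATG4 protease family that processes ATG8 proteins, so the protease family held genes of both signs. The adjusted p of these 5 in limma ranged from 0.241 to 0.389. Among 15 kinases and regulators of receptors, 0 were higher and 1 lower. This was *Keap1*, whose protein is bound by p62 and holds NRF2 in check, with log2 signals of 8.14 to 9.27 in scrmb and 6.98 to 8.12 in MYTHO-KD. The log2 difference of *Keap1* was -0.87 with an SE of 0.30 (limma, adjusted p = 0.267), and it was lower in 4 of 4 animals.

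In the 4 ubiquitin genes, on 3 probe sets, and in the 15 genes of the ER stress response, 0 passed an unadjusted p of 0.05 in either direction without the block on animal, and *Chac1* passed with it. The largest differences in the ubiquitin genes were 0.20 for *Rps27a* and -0.10 for *Ubb*. In the ER stress list they were 0.52 for *Chac1*, a glutathione-degrading enzyme, and 0.43 for *Syvn1*, a ubiquitin ligase of ER-associated degradation, around a list median of 0.04.

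**Figure D4:**
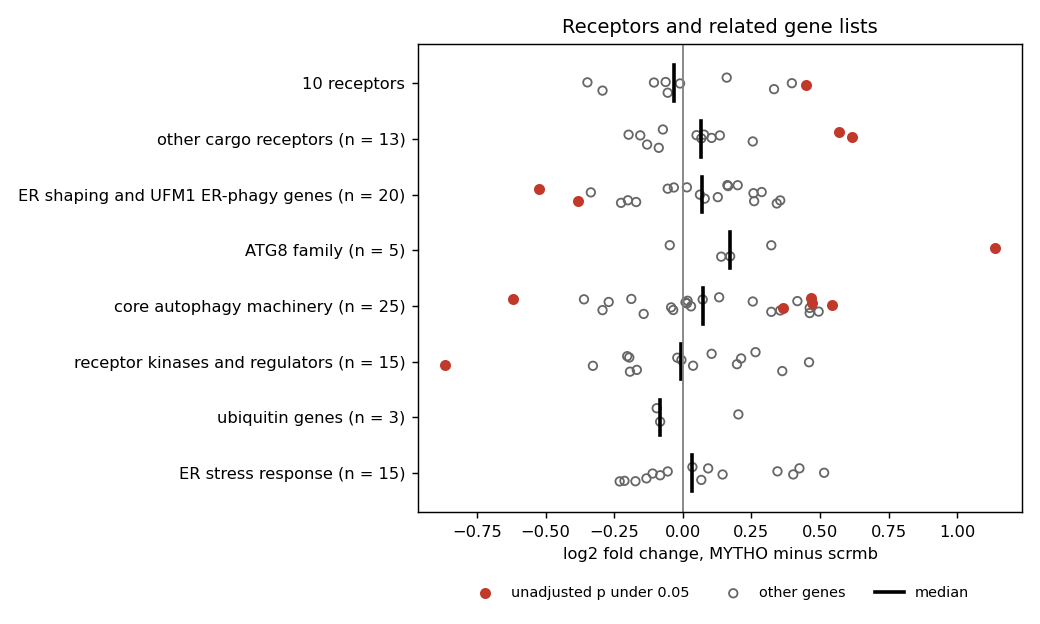
Log2 difference, MYTHO-KD minus scrmb, of the 10 receptors and of the genes in 7 related lists, 1 point per probe set, with filled points for an unadjusted limma p under 0.05 and black bars for list medians. The list medians lie between -0.08 and 0.17, and *Map1lc3a* at 1.14 and *Keap1* at -0.87 lie farthest out.

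These are bulk samples of all cell types of the muscle, in which fewer cells of a type and less RNA per cell cannot be told apart, and the U6 promoter is not restricted to myofibres. The markers of myofibres, the cells that give the tissue its bulk, were near the top of the scale on all arrays, and *Acta1*, the actin of skeletal muscle, was at the ceiling of 19.93 on all 8. Of 8 slow fibre markers, 7 were higher in MYTHO-KD at an unadjusted p of 0.05. The median log2 difference of the 8 was 1.46, and the groups overlapped for each. Over all probe sets, 4.81% were higher and 7.58% lower at that threshold. Without overlap, 2.59% of all probe sets were higher and 3.87% lower. These shares apply to the counts of all marker lists here. The mean of the slow fibre list ran from 10.80 to 12.80 over the scrmb arrays and from 10.87 to 13.87 over the MYTHO-KD arrays. The methods state that regions of the GAS differ in fibre type composition, and they name no region for the array samples. The part of the region sampled in these values was not tested. Of 5 endothelial markers, 2 were higher, with a median of 0.45, and their list mean did not overlap, at 10.17 to 10.75 in scrmb and 10.89 to 11.08 in MYTHO-KD. The macrophage list mean did overlap, at 7.03 to 7.40 and 7.05 to 7.43, with 1 of 6 markers lower, and so did the fibroblast list mean, at 10.78 to 10.96 and 10.54 to 11.18 with 1 of 5 lower. The adipocyte list mean ran from 5.22 to 8.29 in scrmb and from 5.67 to 9.85 in MYTHO-KD, and the blood mean from 11.70 to 13.70 and from 12.44 to 14.76. Of 4 satellite cell markers, 1 was higher at an unadjusted p of 0.05, *Cdh15*, with a log2 difference of 0.51 and no overlap, higher in 4 of 4 animals. The satellite cell mean ran from 5.20 to 5.64 and from 5.46 to 5.60, and the T cell mean from 6.04 to 6.43 and from 5.86 to 6.26. With animal as a block, *Myl2* (slow fibre), *Cd68* (macrophage) and *Cd4* (T cell) also passed an unadjusted p of 0.05. The part of these markers in the receptor values was not tested.

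The probe sets whose profile over the 8 arrays was most like that of *Fam134b* were sought among 18822 probe sets that name 1 gene and span at least as wide a range, 0.6 log2 units. Likeness was the mean absolute difference between profiles after each was centred on its own mean, in log2 units. The nearest were *Shox2* at 0.0394, *Gm5409* at 0.0638, *Rnf182* at 0.08, *Rab22a* at 0.0844 and *Olfr1432* at 0.0853, against a median of 0.324 over all candidates. Of these, *Gm5409* (5.02 to 5.82), *Rnf182* (3.25 to 3.86) and *Olfr1432* (3.96 to 4.68) lay below the array medians of 6.39 to 6.47 on every array. Dim signals of this kind are close to background, so their profiles may be mostly noise. Because of the required range, *Tax1bp1*, *Ccpg1*, *Rtn3* and *Wdfy3* were no candidates. All arrays were made and normalized together, and likeness over 8 arrays was used here only to rank profiles.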

How the data were processed

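Trizol-extracted RNA of 8 GAS muscle samples was measured on Clariom S Mouse arrays, on which several short probes read 1 gene. The deposited log2 signals are those the authors obtained with Transcriptome Analysis Console 4.0.1 by SST-RMA (background correction, signal space transformation, quantile normalization and median polish), with annotation release 36 on mm10. They have 2 decimals, with a lowest value of 2.38 and a ceiling of 19.93 that 21 probe sets reach on an array. Quantile normalization brings the distributions of the arrays close together, so a shift of most transcripts could be lost, and the summary over probes merges isoforms. The authors' table also holds group averages, fold changes, p-values and false discovery rates, which were not used. Columns were assigned to groups by name. The names carry an animal number found once per group, and the methods give scrmb as the opposite leg, so arrays were paired by animal. Deviations from the group means correlated at 0.00271, -0.00135, 0.135 and 0.0870 within animals A to D. Between scrmb and MYTHO-KD arrays of different animals they correlated at -0.167 to 0.104, so the pairing rests on the names and not on these values. No source ties the labels' replicate numbers to columns.

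Groups were compared with limma 3.58.1 in R 4.3.3 (lmFit and eBayes with default settings, two-sided, no block), as the methods of the study name no pairing term, with Benjamini-Hochberg adjustment over all 22206 probe sets. The procedure was tested on simulated data. Precision is limited by 4 arrays per group. Each p-value of this fit rests on the spread between arrays within groups, moderated by that of all probe sets. It does not rest on the spread of the differences within animals. A list was described by counts and medians, with no set test. Members and lists were chosen with earlier results of these data known. Named genes are the 10 receptors, the targeted gene, the genes of each list with an unadjusted p under 0.05 (otherwise the 2 largest differences) and the 5 profiles nearest to *Fam134b*. Of the 22206 rows, 836 name several genes, but none of these represents a receptor. Promoters and gene positions came from RefSeq tables of GRCm38.p6, in which all 10 receptors have a position and 9 a promoter. Alternatives were quantile normalization, median centring, the upper 75% or 50% of probe sets by signal, removal of saturated probe sets, eBayes with trend and robust, array weights, a replicate block by animal, a random block, 1 probe set per symbol, an adjusted p of 0.1 and leaving out each array. After the values were seen, 2 more were added, without animal D and without the scrmb array of A and the MYTHO array of D. 1 marker list is not reported here.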

Additional observations from a re-analysis of the deposited data

Results flagged for a closer look

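Within each group of 4 arrays, the lowest or highest value was compared with its nearest neighbour as a share of the group's range, and 3 of 52 groups had an array far from the others, where chance gives about 1 in 20. For *Sec62*, the scrmb array of animal D was at 13.54 against 13.24 to 13.28 in the other scrmb arrays, a gap of 0.867 of the range. For *Keap1*, the MYTHO-KD array of animal C was at 6.98 against 7.98 to 8.12, a gap of 0.877 of the range. For D230025D16Rik, the MYTHO-KD array of animal C was at 8.80 against 8.08 to 8.20, a gap of 0.833 of the range.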

How the results depend on the processing

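No receptor passed an adjusted p of 0.05 under any alternative run, the replicate block by animal included, in which *Fam134b*, *Tax1bp1* and *Tex264* had adjusted p of 0.467, 0.539 and 0.391 in limma. Over 20 alternatives, *Fam134b* (-0.41 to -0.29), *Tax1bp1* (-0.33 to -0.25) and *Tex264* (0.37 to 0.60) kept their signs, as did *Nbr1*, *Optn* and *Ccpg1*. The other 4 receptors turned: *Wdfy3* to 0.03 with median centring and within -0.065 to 0.052 when 1 array was left out, *Rtn3* to 0.07 without scrmb A and MYTHO D and within -0.13 to 0.02, *Sqstm1* within -0.22 to 0.055, and *Sec62* within -0.20 to 0.0042. Without scrmb A and MYTHO D, *Sqstm1* was at -0.30 and *Sec62* at -0.22. *Rps27a* turned to -0.013 without scrmb A and MYTHO D. The number of receptors at an unadjusted p of 0.05, 1 as reported, was 2 with the upper 50% of probe sets and with trend and robust, where *Fam134b* joined *Tex264*. It was 0 without scrmb A and MYTHO D, and 0 to 1 when 1 array was left out. With quantile normalization and without MYTHO A the 1 receptor was *Fam134b*, lower, and not *Tex264*. The unadjusted p of *Tex264* was under 0.05 in 12 of 20 alternatives. Of the related genes, 7 higher became 3 (without scrmb C) to 12 (without scrmb D), and 4 lower became 2 to 4 when 1 array was left out, 2 with median centring and 2 without scrmb A and MYTHO D.

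The 6 probe sets past an adjusted p of 0.05 became 44 with median centring, 60 without saturated probe sets, 160 with trend and robust, 2 with the replicate block, 34 with a random block, 3 with 1 probe set per symbol, 13 without scrmb A and MYTHO D and 85 at an adjusted p of 0.1. They became 154 without scrmb D and 1 without any other array. Lower probe sets at an unadjusted p of 0.05 were 1683, and 1012 in the upper 50%, where fewer were tested. The cause of the other shifts was not tested. Other probe sets per receptor could not be tried, since each has 1. Signals near the ceiling are compressed, and dim ones are close to background.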
